A study of Mus musculus with 8 samples.

Results

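Rab genes encode small GTPases of the Rab family, the switches that direct vesicle traffic. They were taken as every gene of the deposited tables whose symbol is Rab, a number and at most 1 letter, which gave 59 of 24411 genes. A count was recorded for 58 of them and 51 were abundant enough to be tested. The 8 not tested were Rab15, Rab20, Rab25, Rab26, Rab33a, Rab3b, Rab42 and Rab9b, and Rab9b was at 0 in every library.

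RNA was measured by sequencing in 8 libraries of wild type C57BL/6 mouse bone marrow, 2 from each of 4 sorted fractions of common myeloid progenitors, cells that can give rise to granulocytes, monocytes, red cells and megakaryocytes. Every fraction was sorted as KIT+ and CD16/32-. CD34bright cells were also CD41+ CD9+. CD48dim and CD48bright cells were both CD34dim CD41+ CD9+ and differed in the gate on CD48. The fourth fraction, CD34dim CD41- CD9-, is named CD41/CD9-negative in the text. The comparisons ask which Rab genes are restricted to some of these fractions. Whether the 2 libraries of a fraction stem from separate mice or sorts is not stated in the labels. The p-values therefore cover the spread between libraries alone, and that spread may be technical.

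A Rab protein cycles between a GTP-bound form, which sits on a membrane and recruits effectors such as motors and tethers, and a GDP-bound form that is held in the cytosol by GDI. Exchange factors (GEFs) load GTP and GTPase-activating proteins (GAPs) end the signal. Each organelle carries its own Rab proteins: Rab1 and Rab2a act between the endoplasmic reticulum and the Golgi, Rab5 proteins on early endosomes, Rab7 on late endosomes and lysosomes, and Rab27, Rab37, Rab38, Rab32 and Rab44 on secretory granules and lysosome-related organelles, such as the granules of mast cells and platelets.

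Rab proteins hold to membranes through lipid (prenyl) groups added to cysteines at their end. The last 36 coding bases of 6 of the granule and Golgi members described below, stop codon included, are shown so that the cysteine codons there can be compared. They are given on the coding strand from the GENCODE M21 transcripts (build GRCm38). Every cysteine codon is in capitals, whether or not its cysteine carries a lipid.
Rab27a, chr9:73095421-73095456, plus strand: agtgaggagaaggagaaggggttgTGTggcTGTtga
Rab37, chr11:115160705-115160740, plus strand: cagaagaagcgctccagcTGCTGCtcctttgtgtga
Rab38, chr7:88490725-88490760, plus strand: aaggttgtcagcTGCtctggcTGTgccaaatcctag
Rab32, chr10:10546302-10546337, minus strand: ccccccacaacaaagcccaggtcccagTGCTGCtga
Rab44, chr17:29148240-29148275, plus strand: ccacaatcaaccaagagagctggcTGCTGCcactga
Rab33b, chr3:51493761-51493796, plus strand: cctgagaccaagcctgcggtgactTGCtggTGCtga
Each of the 6 ends shows 2 cysteine codons. They are adjacent in Rab37, Rab32 and Rab44 and separated in Rab27a, Rab38 and Rab33b. Rab44 is the longest of the 6, with 2178 coding bases against 636 to 690 in the others.

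The libraries held 7237587 to 20632005 expected counts, and Rab genes took 0.325% to 0.403% of them, with 50 to 57 members detected per library. A count of 3, the most that a count of 0 allows, equals 0.155 to 0.412 CPM (counts scaled to a library total that TMM adjusts), counting error only. The replicate libraries correlated over all tested genes with Spearman's rho of 0.836 in CD48dim and 0.954 to 0.976 in the other 3 fractions. The CD48dim libraries also differed most in the Rab genes, with a median absolute log2 difference of 0.73 between them against 0.29 to 0.43 in the other fractions. Malat1, a nuclear RNA, stood at 38947 CPM in CD48dim 2 and at 5004 to 14867 in the other 7 libraries. The genes of the gates followed the labels for CD41 and CD48: Itga2b (CD41) was at 2.83 and 2.18 CPM in CD41/CD9-negative against 64.3 to 155 elsewhere, and Cd48 was at 35.8 and 16.9 CPM in CD48dim against 157 to 246 elsewhere. Cd34 was at 510 and 461 CPM in CD34bright against 166 to 397 elsewhere. Fcgr3 (CD16) was found in every library, at 3.02 to 87.3 CPM.

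On the per-length scale, TPM (the deposited length-corrected transcript abundance), the Rab genes spanned several orders of magnitude. Rab7, the late endosome and lysosome Rab, was highest, with a mean of 457 TPM over the 8 libraries and a range of 331 to 861. Rab1, which works between endoplasmic reticulum and Golgi and is the gene named Rab1a in GENCODE, followed at 216 TPM (94.7 to 288). Rab2a of the same route had 147 TPM (119 to 228).
Of the granule group, Rab44 had the highest mean, 144 TPM (51.5 to 361), close to Rab10, an exocytosis Rab, at 125 TPM (49.5 to 180), Rab38 at 121 TPM (17.8 to 207) and Rab37 at 102 TPM (45.2 to 258). Rab14 of the recycling endosome led its group with 125 TPM (80.9 to 182). The ranges of these neighbours overlap, so their order is not fixed by these libraries, whereas the lowest Rab7 library lay above the highest Rab1 library. The granule and exocytosis group, 14 members, took 22.1% to 33.5% of the summed Rab TPM, against 21.4% to 28.9% for early endosome and recycling, 19.9% to 27.7% for late endosome and lysosome, and 17.96% to 25.3% for endoplasmic reticulum and Golgi members. Rab28, which is linked to cilia, led the small group of cilium and other members with 29.7 TPM.

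**Figure D1:**
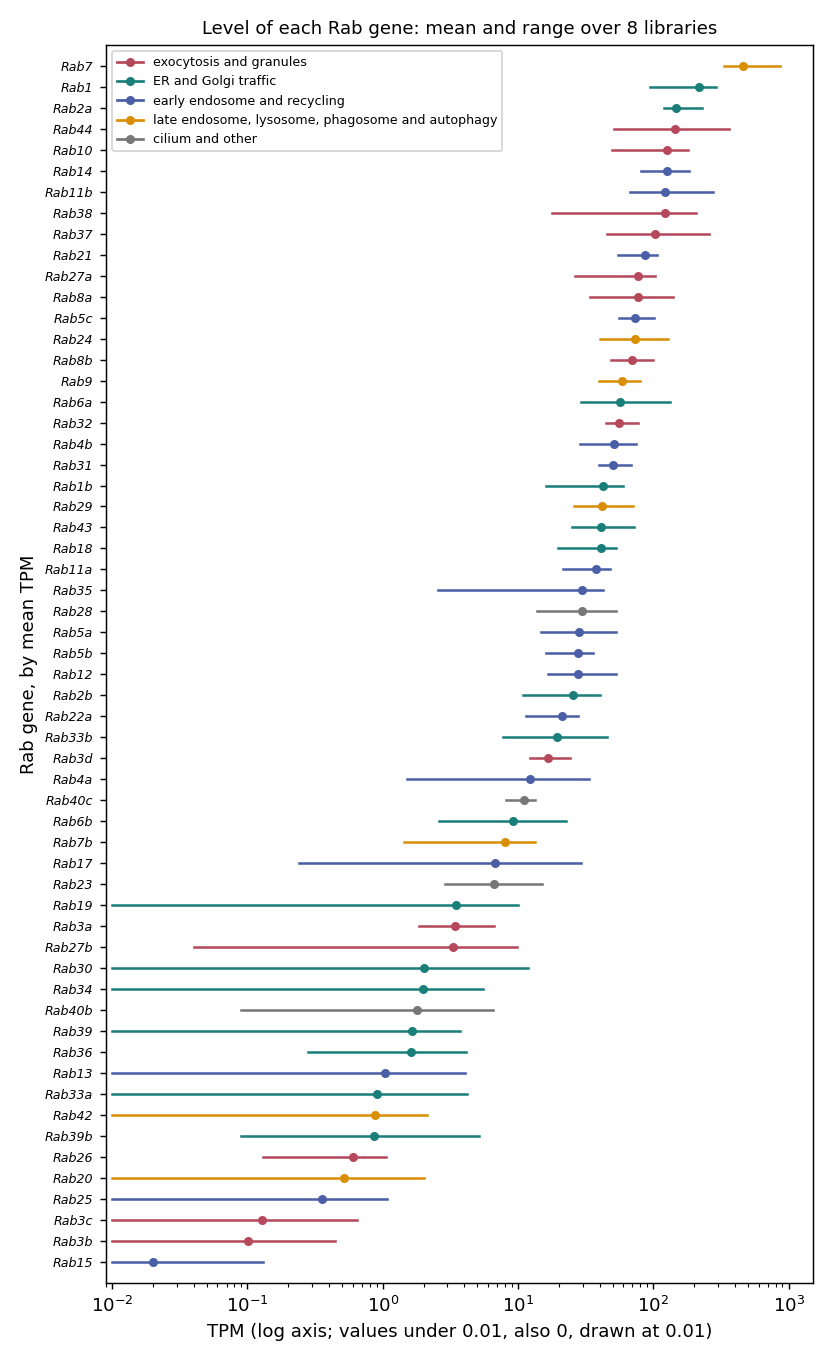
Level of the 58 Rab genes with a count, in TPM on a log axis; points are means over 8 libraries, lines run from the lowest to the highest library and colours mark the role group. Rab7 leads at 457 TPM, Rab44, Rab38 and Rab37 stand among the 9 highest, and the wide lines of Rab38 (17.8 to 207) and Rab27b (0.04 to 9.85) mark members that vary between libraries.

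Levels between fractions were compared in CPM. Over the 51 tested members, the highest fraction mean was under 1.5 times the lowest for 14 genes, 1.5 to under 2 times for 13, 2 to under 4 times for 12, and at least 4 times, or against 0, for 12. The median ratio was 1.91. Most Rab genes were therefore present in all 4 fractions at levels within a few fold. Housekeeping members were among the even ones, such as Rab7 at 409 to 635 CPM and Rab2a at 112 to 161 CPM across libraries.

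Differences were tested with edgeR over all 13177 tested genes, and a gene was called where its p after Benjamini-Hochberg adjustment was under 0.05. For any difference among the 4 fractions 1 of 51 members was called, Rab27b (1.96%), against 2.44% of all genes. Each fraction was then set against the mean of the other 3 on the log2 scale, comparisons that share libraries and are not independent of one another. In CD48dim 2 members were called, Rab27b and Rab37, both higher (3.92%), against 5.78% of all genes with 3.89% of all genes called higher and 1.89% lower. In CD41/CD9-negative 3 members were called, Rab27b, Rab37 and Rab38, all lower (5.88%), against 3.04% of all genes, with 0.895% of all genes called lower and 2.14% higher. The counts for any difference and for CD48dim thus lie near or under the background. With 3 genes the last share is coarse. When libraries of the same replicate number were blocked together (the replicate block), edgeR called 4 of 51 members for any difference (7.84%, against 5.8% of all genes), 6 in CD48dim (11.8% against 11.1%) and 6 in CD41/CD9-negative (11.8% against 4.63%).

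In CD34bright and in CD48bright edgeR called 0 of 51 members, as it called 0% of all genes. At an unadjusted p under 0.05 there were 5 members in CD34bright (Rab38, Rab44, Rab31 and Rab9 higher, Rab24 lower; 9.8% against 7.51% of all genes) and 2 in CD48bright (Rab27b and Rab44, both higher; 3.92% against 3.41%). DESeq2 called 0 members in CD34bright (against 1.89% of all genes) and 1 in CD48bright (Rab44, against 0.25%), limma-voom called 0 in both, and edgeR with the replicate block called 0 in both (against 0.0152% and 0% of all genes).

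**Figure D2:**
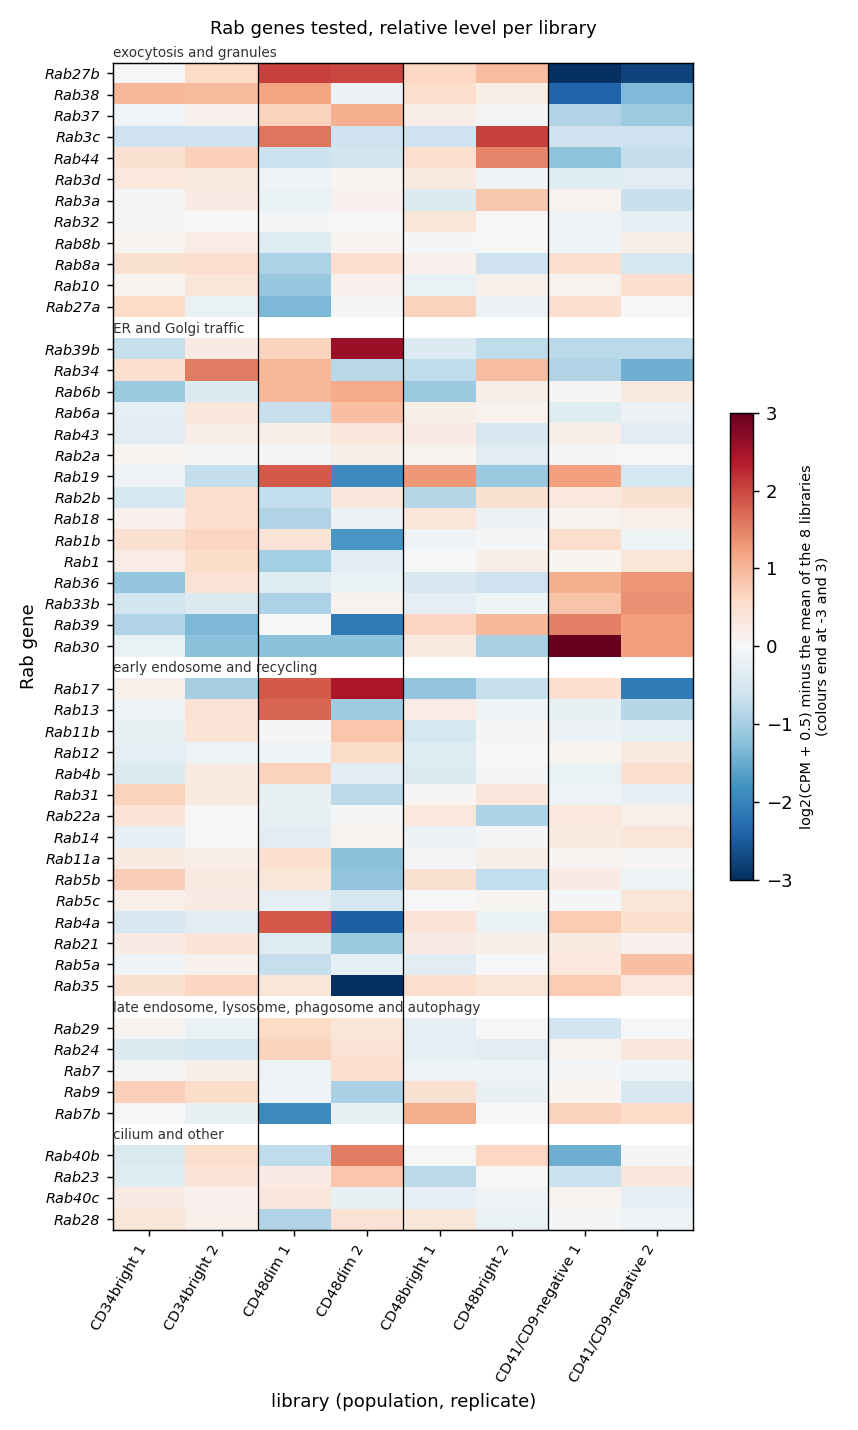
Relative level of the 51 tested Rab genes (rows, grouped by role) in the 8 libraries (columns), as log2(CPM + 0.5) minus the gene's mean over libraries; red is higher, blue lower, and colours end at -3 and 3. Rab27b is red in both CD48dim libraries (27.5 and 26.7 CPM) and deep blue in both CD41/CD9-negative libraries (0.157 and 0.484), while rows such as Rab4a and Rab35 differ between the 2 CD48dim libraries (22.8 and 0.687 CPM, and 33.5 and 1.92).

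Rab27b had the smallest adjusted p of all members for any difference. It is one of the pair Rab27a and Rab27b that dock granules at the plasma membrane, and it acts in the release of platelet and mast cell granules. The gene lies on chromosome 18, 69979131 to 70141605 on the minus strand (GRCm38). It had 6.19 and 9.81 CPM in the CD34bright libraries, 27.5 and 26.7 in CD48dim, 9.88 and 12.4 in CD48bright, and 0.157 and 0.484 in CD41/CD9-negative. Both CD48dim libraries lay above all others and both CD41/CD9-negative libraries below all others, with CD34bright and CD48bright between them. The edgeR adjusted p for any difference was 0.0194. It was higher in CD48dim than the mean of the other 3 by 3.13 ± 0.46 on the log2 scale (SE; edgeR adjusted p = 0.00869), and lower in CD41/CD9-negative, log2 fold change -5.35 ± 0.74 (edgeR adjusted p = 0.0060). The CD41/CD9-negative value rests on 2 and 6 counts, and it enters the mean that CD48dim was set against. CD48dim against CD34bright and CD48bright alone was not tested.
By counts pooled over libraries, CD48dim (568 counts) exceeded CD41/CD9-negative (8 counts) 85.3-fold (95% interval 43.0 to 198, exact, counting error only). CD48bright exceeded it 33.9-fold (17.003 to 79.2) and CD34bright 24.2-fold (12.1 to 56.6). The differences of CD34bright, 0.79 ± 0.49 (edgeR adjusted p = 0.755), and CD48bright, 1.43 ± 0.48 (edgeR adjusted p = 1.00), from the mean of the other 3 did not pass. The CD48dim call held under all 13 alternatives, each of which kept CD41/CD9-negative in the mean of the other 3. Without CD41/CD9-negative 1 the call for that fraction was lost (edgeR adjusted p = 0.103), as was that for any difference (0.124), which was lost also without CD41/CD9-negative 2 (0.0797).

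Rab27a, its near relative and the Rab of lytic granules and melanosomes, did not follow this order. Its levels were 165 and 96.9 CPM in CD34bright, 43.1 and 107 in CD48dim, 178 and 98.5 in CD48bright, and 155 and 111 in CD41/CD9-negative. CD48dim had the lowest mean, 74.9 CPM against 131 to 138, and both its libraries lay below those of CD41/CD9-negative, while its range overlapped those of the other 2 fractions. No comparison of Rab27a passed (CD48dim log2 fold change -0.84 ± 0.43; edgeR adjusted p = 0.259), though without CD48dim 2 it was called lower in CD48dim. As a share of the TPM of the pair, Rab27b made 20.5% and 9.18% in CD48dim, 1.496% to 4.86% in the 4 CD34bright and CD48bright libraries, and 0.0402% and 0.178% in CD41/CD9-negative. Rab27a was the more abundant transcript of the pair in every library. The CD48dim libraries, whose shares differed, had 26.4 and 97.4 TPM of Rab27a and 6.8 and 9.85 TPM of Rab27b.

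Rab37, which acts on mast cell and other secretory granules, lies on chromosome 11, 115091431 to 115162236, plus strand. It had 88.1 and 101 CPM in CD34bright, 151 and 196 in CD48dim, 107 and 88.6 in CD48bright, and 49.3 and 44.2 in CD41/CD9-negative. The fractions formed the same 3 steps as for Rab27b, with CD48dim above and CD41/CD9-negative below all other libraries, over a smaller range of 3.71-fold between the highest and lowest mean. It was higher in CD48dim by 1.198 ± 0.238 on the log2 scale (SE; edgeR adjusted p = 0.0233) and lower in CD41/CD9-negative, -1.32 ± 0.27 (edgeR adjusted p = 0.0351). For any difference the edgeR adjusted p was 0.0537, and 0.0245 with the replicate block. The CD48dim call was lost without any 1 of the 6 libraries of the other fractions (edgeR adjusted p from 0.0602 without CD48bright 1 to 0.0963 without CD34bright 1). Those same 6 omissions ended the CD41/CD9-negative call, at adjusted p from 0.0808 to 0.385.

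Rab38, which with Rab32 delivers cargo to lysosome-related organelles such as melanosomes and platelet dense granules, lies on chromosome 7, 88430273 to 88491572, plus strand. Its levels were 142 and 138 CPM in CD34bright, 161 and 63.1 in CD48dim, 102 and 81.9 in CD48bright, and 13.1 and 28.1 in CD41/CD9-negative. CD34bright lay above CD48bright, the CD48dim libraries spanned both, and the CD41/CD9-negative libraries lay below the other 6. It was lower in CD41/CD9-negative, log2 fold change -2.46 ± 0.47 (SE; edgeR adjusted p = 0.0254). For any difference the edgeR adjusted p was 0.0758, and 0.0496 with the replicate block. The CD41/CD9-negative call was lost without CD34bright 1 (0.0509), CD34bright 2 (0.0503), CD48bright 1 (0.0590), CD41/CD9-negative 1 (0.332) or CD41/CD9-negative 2 (0.1003).

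Rab32 showed little of this difference. It had 55.5 and 53.2 CPM in CD34bright, 52.9 and 54.1 in CD48dim, 69.6 and 53.9 in CD48bright, and 49.5 and 45.0 in CD41/CD9-negative, so that the lowest 2 libraries were again CD41/CD9-negative but by a small margin. Of the TPM of the pair, Rab38 made 61.2% to 80.5% in the 6 CD41+ CD9+ libraries and 26.4% and 45.9% in CD41/CD9-negative. The more abundant gene of this pair was therefore Rab38 in the former and Rab32 in the latter.

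**Figure D3:**
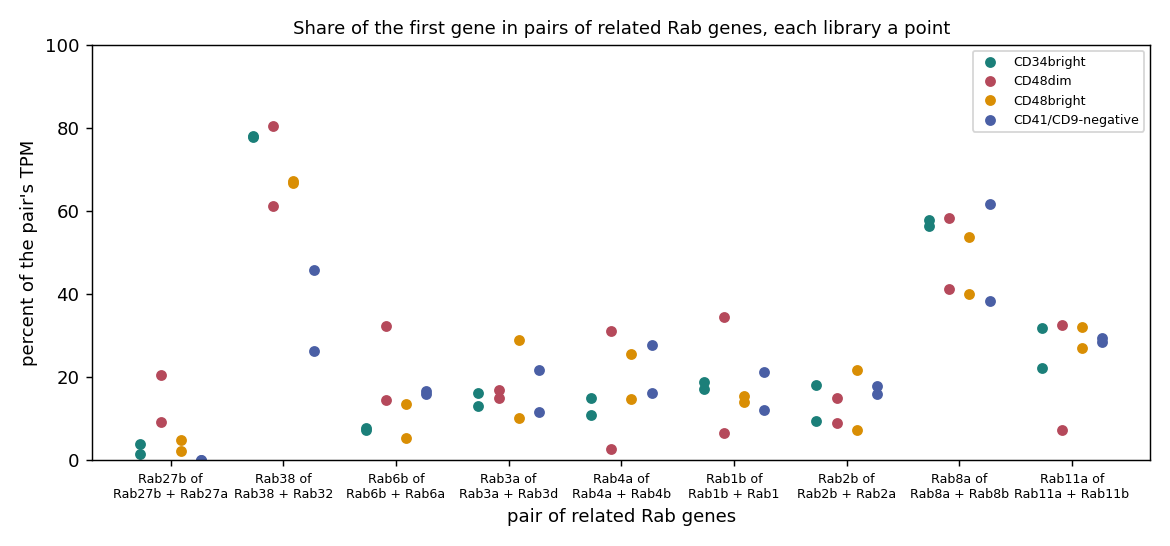
Share of the first gene in the summed TPM of 9 pairs of related Rab genes, in percent, with each library as a point coloured by fraction. Rab38 makes 61.2% to 80.5% of its pair in CD41+ CD9+ libraries and 26.4% and 45.9% in CD41/CD9-negative, and Rab27b reaches 20.5% in 1 CD48dim library, while Rab8a spans 38.4% to 61.6% within CD41/CD9-negative alone.

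Rab44, a long Rab that also carries EF-hand motifs and acts in mast cell degranulation, lies on chromosome 17, 29114145 to 29148980, plus strand. It had 351 and 417 CPM in CD34bright, 162 and 173 in CD48dim, 362 and 702 in CD48bright, and 110 and 154 in CD41/CD9-negative. All 4 CD34bright and CD48bright libraries lay above all 4 others, an order unlike that of Rab27b and Rab37, where CD48dim was highest. No comparison passed in edgeR: the adjusted p was 0.0516 for any difference, 0.0822 for CD41/CD9-negative (log2 fold change -1.30 ± 0.33), 0.151 for CD48dim (-0.84 ± 0.32) and 0.563 for CD48bright (1.38 ± 0.29). With the replicate block it was called for any difference (edgeR adjusted p = 0.0109) and for CD41/CD9-negative (0.0171). DESeq2, limma-voom and edgeR with no filter on low counts called it in both as well, as did edgeR without either CD48dim library, so that it was called under 7 and 6 of 13 alternatives. Its CD48bright comparison was called under 3 of the 13.

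Marker genes of other cell types differed between the same fractions. Over 10 megakaryocyte and platelet markers the summed level was 159 to 205 CPM in CD34bright, 337 to 341 in CD48dim, 162 to 176 in CD48bright and 30.4 to 50.2 in CD41/CD9-negative, where 5 and 6 of the 10 were detected and Pf4, Ppbp and Treml1 were at 0. Gp6 was at 0 in all 8 libraries. The 10 include Itga2b, the gene of the CD41 gate, at 64.3 to 155 CPM in the CD41+ CD9+ libraries. It was at 2.83 and 2.18 CPM in CD41/CD9-negative, so part of the low sum there follows from the gate itself. The 7 mast cell and basophil markers summed to 1097 to 1428 CPM in CD34bright, 479 to 781 in CD48dim, 1004 to 1724 in CD48bright and 72.9 to 82.5 in CD41/CD9-negative. All 7 were detected in every library. Gata2, which stem and megakaryocyte progenitors also express, made up 385 and 646 CPM of the CD48dim sums. Without it the other 6 summed to 777 and 946 CPM in CD34bright, 94.5 and 136 in CD48dim, 692 and 1329 in CD48bright, and 60.6 and 39.6 in CD41/CD9-negative.
The 5 stem cell markers were highest in CD48dim (800 and 1297 CPM against 79.3 to 276 elsewhere). The 8 mature neutrophil markers summed to 4129 and 604 CPM in CD48dim. In the other 6 libraries they lay at 45.0 to 678, the highest being CD41/CD9-negative 1. The 8 erythroid markers summed to 55.0 and 87.8 CPM in CD34bright, 614 and 449 in CD48dim, 530 and 219 in CD48bright, and lay at 317 and 332 in the CD41/CD9-negative libraries. Car1 alone made up most of each sum. It had 35.2 and 51.9 CPM in CD34bright, 337 and 357 in CD48dim, 446 and 176 in CD48bright, and 292 and 301 in CD41/CD9-negative. The 6 lymphoid markers (1683 and 2481 CPM against 67.6 to 204) and the 6 dendritic and monocyte markers (1436 and 1841 CPM against 13.3 to 438) were highest in CD41/CD9-negative. In sorted bulk RNA, fewer cells with a transcript and less of it per cell cannot be told apart. The part of these markers in the Rab differences was not tested.

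Over all 12 tested granule and exocytosis members, 9 had a negative fold change in CD41/CD9-negative, with a median log2 fold change of -0.47 against -0.01 over all genes. Among the 8 other than Rab27b, Rab37, Rab38 and Rab44, 5 were negative and the median was -0.14. In CD34bright 7 of these 8 were positive, median 0.21 against -0.02 over all genes. None of the 8 was called. Rab3d, a Rab of secretory granules, ranged from 24.8 to 40.0 CPM and was lowest in both CD41/CD9-negative libraries (24.8 and 25.3). Rab8a, Rab8b and Rab10, which serve exocytosis in most cells, lay at 35.1 to 98.4, 127 to 194 and 94.2 to 294 CPM and were not called in any comparison. Both CD34bright libraries lay above both CD48bright libraries for Rab8a and Rab8b. Rab3c, a neuronal form, was recorded in 2 libraries of different fractions, at 1.84 CPM in CD48dim 1 and 2.65 in CD48bright 2, and at 0 in the other 6.

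**Figure D4:**
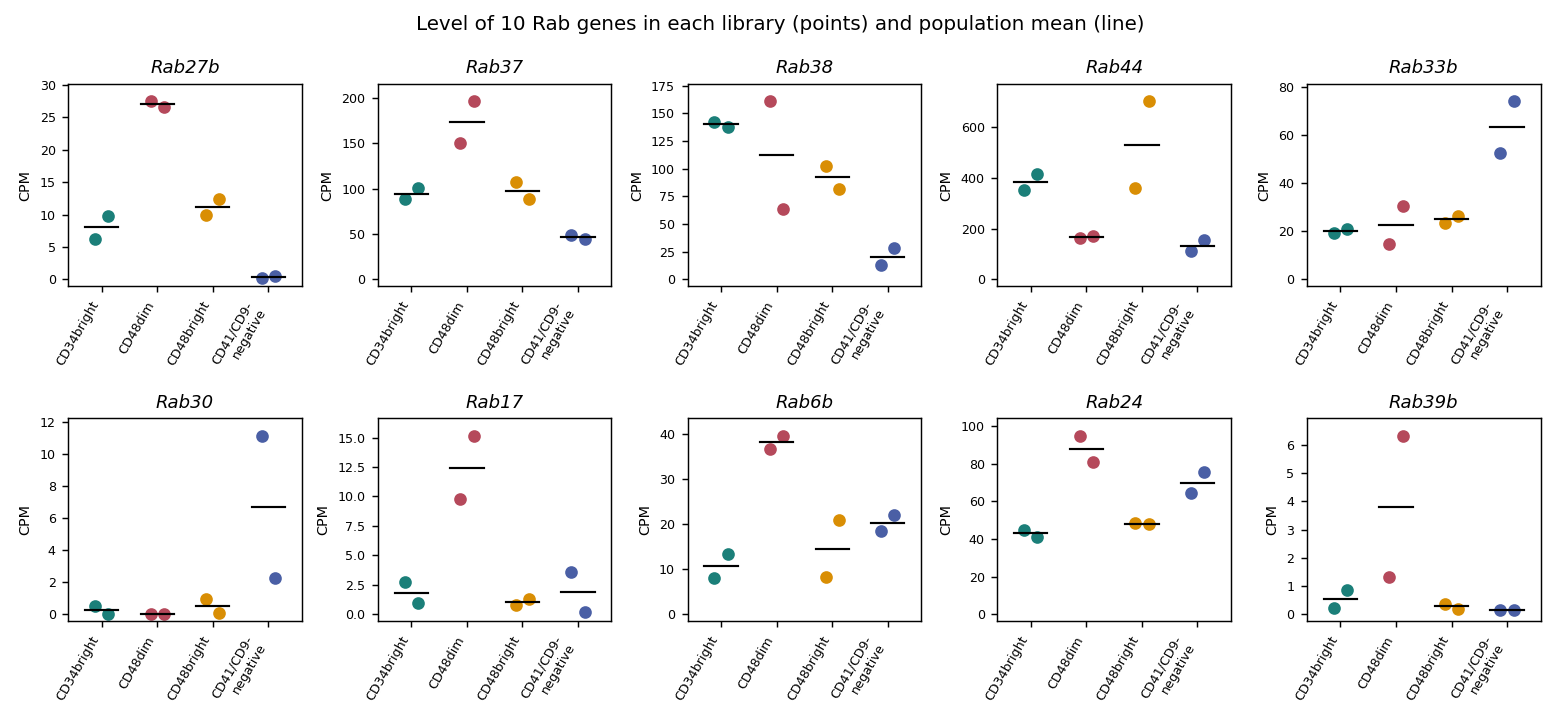
CPM (vertical axes, each panel with its own scale) of 10 Rab genes in each library (points, coloured by fraction) with the fraction mean (line, n = 2). Rab27b and Rab37 are highest in CD48dim and lowest in CD41/CD9-negative, Rab44 is high in CD34bright and CD48bright (351 to 702 CPM), and Rab33b (52.3 and 73.9 CPM) and Rab30 (11.1 and 2.26) are highest in CD41/CD9-negative.

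Among the Golgi members, a few were highest in CD41/CD9-negative without passing edgeR's test. Rab33b, which works at the Golgi and in autophagosome formation, lies on chromosome 3, 51483920 to 51496232. It had 19.08 and 21.04 CPM in CD34bright, 14.5 and 30.5 in CD48dim, 23.6 and 26.1 in CD48bright, and 52.3 and 73.9 in CD41/CD9-negative. The last 2 libraries lay apart from the other 6, at a log2 fold change of 1.495 ± 0.341 (SE; edgeR adjusted p = 0.0511, and 0.0207 with the replicate block). Rab30, a Golgi Rab on chromosome 7, 92741603 to 92844535, was at 0.516 and 0 CPM in CD34bright, 0 and 0 in CD48dim, 0.936 and 0.0914 in CD48bright, and 11.1 and 2.26 in CD41/CD9-negative. Its edgeR adjusted p was 0.0736, and 0.0233 with the replicate block. With no count in CD48dim its fitted fold change is not given, and its 2 CD41/CD9-negative libraries differed from each other by several fold. Besides the block, DESeq2, limma-voom and edgeR with no filter on low counts called both Rab33b and Rab30 higher in CD41/CD9-negative, as did edgeR without either CD48dim library, 6 of 13 alternatives in all.

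Rab39 and Rab36 were also highest in CD41/CD9-negative, at lower levels. Both were counted in the endoplasmic reticulum and Golgi group, though they are also described at endosomes and lysosomes. Rab39, an endosome and lysosome Rab of phagocytes, had 0.670 and 0.355 CPM in CD34bright, 1.69 and 0 in CD48dim, 2.91 and 3.75 in CD48bright, and 5.67 and 4.60 in CD41/CD9-negative. Rab36, which positions late endosomes and lysosomes, reached 4.01 and 4.92 CPM in CD41/CD9-negative against 0.464 to 2.42 elsewhere. Both had CD41/CD9-negative libraries above the other 6, and neither was called. Rab34, an associate of the Golgi and the cilium, was the reverse: lowest in CD41/CD9-negative (0.236 and 0 CPM, against 0.275 to 3.55 elsewhere), and was not called.

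Another group was highest in CD48dim, below the threshold. Rab6b, the neuronal form of the Golgi Rab6 pair, had 8.10 and 13.4 CPM in CD34bright, 36.6 and 39.4 in CD48dim, 8.11 and 20.8 in CD48bright, and 18.4 and 22.0 in CD41/CD9-negative (log2 fold change in CD48dim 1.38 ± 0.42; edgeR adjusted p = 0.0819, and 0.0336 with the replicate block). Rab17, a Rab of polarised recycling in epithelia, had 2.68 and 0.924 CPM in CD34bright, 9.76 and 15.1 in CD48dim, 0.780 and 1.28 in CD48bright, and 3.54 and 0.161 in CD41/CD9-negative (3.03 ± 0.89; edgeR adjusted p = 0.0753, and 0.0499 with the block). Both CD48dim libraries lay above all others for each gene.
Rab39b, a neuronal relative of Rab39, was at 1.32 and 6.32 CPM in CD48dim and at 0.157 to 0.853 elsewhere (3.69 ± 1.05; edgeR adjusted p = 0.0707). Rab24, an autophagy Rab on chromosome 13, 55319743 to 55321946, had 94.8 and 80.8 CPM in CD48dim against 41.0 to 75.5 elsewhere (0.74 ± 0.25; edgeR adjusted p = 0.104). In GENCODE M21, Rab24 shares 1258 exon bases with Prelid1, a gene on the other strand with 11827 counts against its 6536. Since the libraries hold no strand, its level may hold reads of Prelid1. The deposited SD of its count estimate was 0, and the effect of the shared bases was not tested. Rab40b, which recruits ubiquitin ligase parts, had its highest mean in CD48dim, but from 1 library (0.440 and 4.12 CPM).

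On the CPM scale, some members of general traffic were lowest in CD48dim. Rab1 was at 133 and 218 CPM there and at 269 to 396 in the other 6 libraries (log2 fold change -0.86 ± 0.29; edgeR adjusted p = 0.115, and 0.0319 with the replicate block). Rab21, an early endosome Rab that carries integrins, was at 56.0 and 33.7 CPM against 80.0 to 96.9 (-0.95 ± 0.30; edgeR adjusted p = 0.0888, and 0.0477 with the block). Neither passed in edgeR with all libraries and no block. DESeq2, also without a block, called 3 members lower in CD48dim (5.88%, against 6.54% of all genes), Rab1 and Rab21 among them. Rab18 and Rab5c were also lower in CPM in both CD48dim libraries than in the other 6. In TPM only Rab21 stayed apart (60.9 and 54.5 against 79.8 to 106). CD48dim 2 had 232 TPM of Rab1, 49.0 of Rab18 and 69.3 of Rab5c, within the range of the other 6 libraries. Its summed Rab TPM was 4011, against 2287 to 3027 in the other libraries.

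Counted by whether both libraries of a fraction lay outside all 6 others in CPM, 7 of 51 members were above in CD48dim (13.7%, against 11.6% of all genes) and 4 below (7.84% against 11.6%). In CD41/CD9-negative 6 were above (11.8% against 8.1%) and 8 below (15.7% against 6.29%): Rab27b, Rab32, Rab34, Rab37, Rab38, Rab39b, Rab3d and Rab44. In CD34bright 2 were above (Rab3d and Rab9, 3.92% against 4.86%) and 1 below (Rab24, 1.96% against 4.18%), and in CD48bright none, against 1.38% above and 1.43% below. The members below in CD41/CD9-negative were mostly of the granule group, 6 of the 8, where that group held 12 of the 51 tested members. The role groups were chosen with earlier results of these data known. The median log2 fold change of the 51 members was -0.11 in CD48dim (all genes 0.06) and 0.01 in CD41/CD9-negative (all genes -0.01). It was 0.08 for the CD34bright comparison (all genes -0.02) and -0.02 for that of CD48bright (all genes 0.03). With genes at 0 in a fraction set to a bound of 3 counts over that fraction, the CD48bright medians became -0.06 and 0.02, and the CD34bright median of all genes became -0.03.

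The proteins that act on Rab GTPases were examined from 5 lists. The GDI, escort and prenylation list, whose products carry Rab proteins and attach their lipid, had 11 tested genes and none was called in any of the 5 comparisons. Of 43 tested exchange factors, 3 rose in CD48dim (6.98%, against 3.89% of all genes called higher and 5.78% called either way): Dennd2d, Dennd1c and Madd. Madd, which loads Rab3 and Rab27 proteins, had 147 and 120 CPM in CD34bright, 355 and 315 in CD48dim, 144 and 133 in CD48bright, and 195 and 153 in CD41/CD9-negative, with a log2 fold change in CD48dim of 1.18 ± 0.23 (edgeR adjusted p = 0.0222). Both CD48dim libraries lay above all others. Dennd2d, a DENN domain exchange factor, had 67.2 and 112 CPM in CD48dim and 13.0 to 45.2 elsewhere (1.78 ± 0.31; edgeR adjusted p = 0.0158) and was also called for any difference (0.0479). Dennd1c had 81.5 and 94.5 CPM in CD48dim and 16.3 to 65.3 elsewhere (1.44 ± 0.32; edgeR adjusted p = 0.0361). Of the 43, 38 (88.4%) had a positive fold change in CD48dim, median 0.33, against 53.3% of all genes and a median of 0.06.

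Of 36 tested GAPs, 2 rose in CD48dim (5.56%, against 3.89% of all genes called higher) and 1 in CD41/CD9-negative (2.78% against 2.14%), shares near the background. Sgsm1 had 11.01 and 9.34 CPM in CD48dim and 0.183 to 8.26 elsewhere (log2 fold change 2.91 ± 0.69; edgeR adjusted p = 0.0416). Tbc1d10c had 116 and 153 CPM in CD48dim and 95.5 and 132 in CD41/CD9-negative, so that these fractions overlapped, against 42.4 to 56.2 in the other 4 libraries (1.08 ± 0.26; edgeR adjusted p = 0.0439). Evi5, a GAP studied with Rab11, lay at 64.92 and 72.01 CPM in CD41/CD9-negative, against 21.8 to 41.5 elsewhere (1.204 ± 0.272; edgeR adjusted p = 0.0485).

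Of 57 tested effectors, 5 rose in CD48dim (8.77%, against 3.89% of all genes called higher and 5.78% called either way). Sytl5, a synaptotagmin-like protein that binds Rab27, had 0.464 and 2.77 CPM in CD34bright, 14.8 and 29.1 in CD48dim, 0.104 and 1.01 in CD48bright, and 0.315 and 0.242 in CD41/CD9-negative. It was higher in CD48dim by 5.13 ± 0.83 on the log2 scale (edgeR adjusted p = 0.0131) and was called for any difference (0.0480). Mlph, melanophilin, which ties Rab27 to myosin V, had 10.2 and 5.22 CPM in CD48dim, 0.825 to 2.83 in CD34bright and CD48bright, and 0 in both CD41/CD9-negative libraries. It was called higher in CD48dim (edgeR adjusted p = 0.0233) and lower in CD41/CD9-negative (0.0439), the 1 effector called there (1.75%, against 0.895% of all genes called lower). The 7 other tested genes of the list whose products bind Rab27 (Exph5, Rph3al, Unc13d and Sytl1 to Sytl4) were not called in any comparison. They did not share 1 direction: in CD48dim Sytl1 had a log2 fold change of 1.66 and Sytl2 of -2.998, and Sytl2 had 2.49 in CD48bright.
Myo5c, a class V myosin, had 21.8 and 15.8 CPM in CD48dim and 0.711 to 6.46 elsewhere (3.18 ± 0.64; edgeR adjusted p = 0.0252). Exoc6b, a subunit of the exocyst that tethers vesicles at the plasma membrane, had 66.5 and 115 CPM in CD48dim and 22.7 to 43.3 elsewhere (1.56 ± 0.31; edgeR adjusted p = 0.0226). Appl2, a Rab5 effector on endosomes that the naming rule left out and that was named after its values were seen, had 98.8 and 128 CPM in CD48dim and 32.5 to 68.4 elsewhere (1.27 ± 0.29; edgeR adjusted p = 0.0382). In CD48dim 43 of 57 effectors (75.4%) had a positive fold change, median 0.41, against 53.3% and 0.06 over all genes.

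Of 31 tested genes for the making of lysosome-related organelles, 1 fell in CD48dim (3.23%, against 1.89% of all genes called lower) and 1 rose in CD41/CD9-negative (3.23% against 2.14% called higher), single genes in shares near the background. Ap3s1, a subunit of the AP-3 adaptor that sorts cargo to these organelles, had 226 and 224 CPM in CD34bright, 30.0 and 46.4 in CD48dim, 157 and 113 in CD48bright, and 57.0 and 62.3 in CD41/CD9-negative. Its log2 fold change in CD48dim was -1.68 ± 0.31 (edgeR adjusted p = 0.0179), and it was called for any difference (0.0187). Slc35d3, a transporter needed for platelet dense granules, lay at 23.1 and 37.0 CPM in CD41/CD9-negative, against 0.670 to 12.6 elsewhere (3.64 ± 0.62; edgeR adjusted p = 0.0151; any difference 0.0481). Rab27b, Rab37 and Rab38 were lowest in that fraction.

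Of the 18 calls in these lists, each was made with the replicate block too, and each was lost in at least 2 of the 8 fits that left out 1 library. Those of Sytl5, Dennd2d and Ap3s1 in CD48dim and of Slc35d3 in CD41/CD9-negative were made under 11 of 13 alternatives. They were lost, respectively, without CD41/CD9-negative 1 or 2, without CD34bright 1 or CD41/CD9-negative 1, without CD34bright 1 or CD41/CD9-negative 2, and without CD41/CD9-negative 1 or 2, at edgeR adjusted p up to 0.0513, 0.0553, 0.0558 and 0.210. The other 14 were made under 6 to 9 of 13, and their highest edgeR adjusted p was 0.476, for Evi5.

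**Figure D5:**
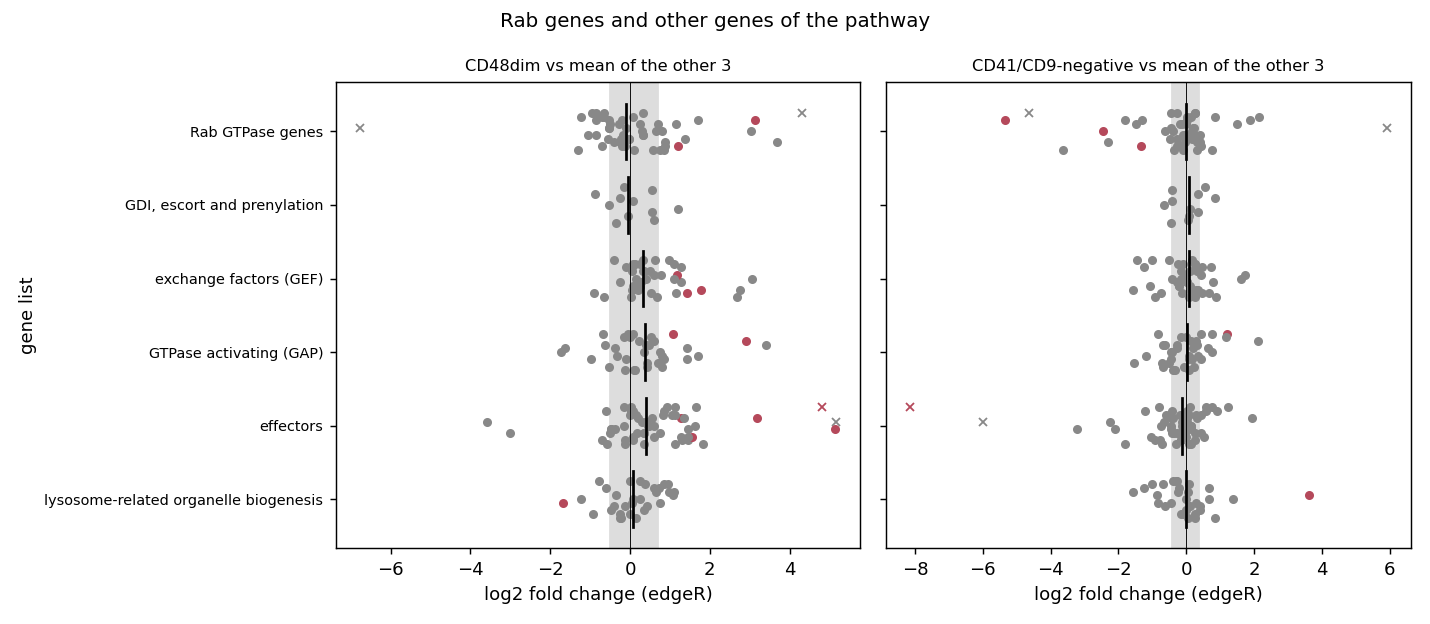
Log2 fold change of each tested gene (points) in CD48dim (left) and CD41/CD9-negative (right) against the mean of the other 3 fractions, for Rab genes and 5 lists of pathway genes; red points were called by edgeR, crosses have a fraction at 0 counts, black bars are medians and the grey band holds the middle quartiles of all 13177 genes. In CD48dim the bars of exchange factors (0.33), GAPs (0.37) and effectors (0.41) lie right of that of the Rab genes (-0.11).

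Apart from Rab24, 11 members overlap exons of another gene in GENCODE M21, for 3 of them a gene with no count. Among them are Rab2b with Tox4 (12080 counts against 3399) and Rab26 with Traf7 (8676 against 48), whose levels carry the same doubt. Rab27b, Rab37, Rab38, Rab44, Rab33b and Rab30 have no such overlap.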

How the data were processed

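RNA of 8 libraries was amplified before sequencing and, per the labels' protocols, carries no strand. The submitters' processing notes name build mm10 with the tools RSEM 1.3.2, STAR 2.7.2a and edgeR 3.30.3. Alignment settings are not stated in the labels. Expected counts per gene, and TPM for levels between genes, were taken as deposited, both per the file headers. The posterior SD of the count and the effective length that the authors also deposited describe the estimate. The SD was 0 for 58 members and at most 0.00156% of the count for Rab8b, so by this measure no Rab count was uncertain. A deposited second table per library repeats the expected counts of a subset with 39 members.

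Expected counts were rounded, which altered at most 2.2% of the genes in a library. Of 24411 genes, 13177 passed filterByExpr of edgeR 4.0.16 (R 4.3.3) and were scaled by TMM. One quasi-likelihood model with a mean per fraction used all 8 libraries, leaving 4 residual and 5.46 prior degrees of freedom (biological coefficient of variation 49.8%). Tests were two-sided, with Benjamini-Hochberg adjustment over all genes. An SE is the log2 fold change divided by the square root of F. The script was tested on simulated data. All 59 members matched GENCODE M21.

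Same-numbered libraries of different fractions deviated together in all 6 pairs of fractions (correlations over genes 0.112 to 0.222). In each of the 4 fractions replicate 1 also had more counts and less Malat1 than replicate 2. Malat1 was at 5004 to 10325 CPM in the replicate 1 libraries and at 11375.5 to 38947 in the replicate 2 libraries. What the shared deviations stem from was not tested. The labels do not state what the numbers mark. Results with the number as a block are given beside calls they change.

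The members, role groups, lists, markers and tests were chosen with earlier results of these data known. Named are called members, members with a highest mean of at least 2 CPM and at least 4 times the lowest, the highest TPM per role group, and up to 4 called genes per list. Rab6b, Rab24, Rab1, Rab21 and other members that were not called were named after their values were seen. Alternatives were RLE size factors, no filter, DESeq2 1.42.0, limma-voom 3.58.1, the replicate block, TPM for levels, and each library left out in turn.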

Additional observations from a re-analysis of the deposited data

How the results depend on the processing

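Of the calls of single members, that of Rab27b in CD48dim was made under all 13 alternatives, that in CD41/CD9-negative under 12 and that for any difference under 11. Those of Rab37 in CD48dim and CD41/CD9-negative were made under 7 each, and that of Rab38 in CD41/CD9-negative under 8. None of these changed direction. RLE size factors left all 5 counts of Rab genes as they were.

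The number of Rab genes called for any difference was 1. It became 7 with no filter on low counts (12.1%, against 8.69% of all genes) and 7 with DESeq2 (13.7% against 13%). It became 3 with limma-voom (5.88% against 2.9%) and 4 with the replicate block (7.84% against 5.8%). For CD48dim it was 2, and became 4 with no filter (6.9%, against 10.2% of all genes) and 9 with DESeq2 (17.6% against 15.3%). With limma-voom it was 3 (5.88% against 5.77%), and with the replicate block 6 (11.8% against 11.1%). For CD41/CD9-negative it was 3, and became 6 with no filter (10.3%, against 4.59% of all genes) or DESeq2 (11.8% against 6.89%). It was 6 also with limma-voom (11.8% against 3.85%) and with the replicate block (11.8% against 4.63%). For CD34bright it was 0, and 1 with no filter (1.72%, against 1.25% of all genes). For CD48bright it was 0, and 1 with no filter (1.72%, against 0.362% of all genes) or DESeq2 (1.96% against 0.25%). Leaving out 1 library at a time, the counts ran from 0 to 11 for any difference, 0 to 4 for CD34bright, 1 to 16 for CD48dim, 0 to 2 for CD48bright and 0 to 9 for CD41/CD9-negative. The highest of each came without CD48dim 1, and the reason was not tested.

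The count of all genes moved as well. For any difference it was 322, and 1607 with no filter, 1718 with DESeq2, 764 with the replicate block and 32 to 3399 with a library left out. For CD48dim 761 became 1878, 2022, 1464 and 221 to 4542, and for CD41/CD9-negative 400 became 849, 908, 610 and 45 to 1365. For CD34bright 0 became 231, 249, 2 and 0 to 1096, and for CD48bright 0 became 67, 33, 0 and 0 to 193. The cause was not tested. The depth limits Rab27b in CD41/CD9-negative (8 counts) and the members under about 1 CPM.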

Other observations

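Genes whose names resemble those of the Rab genes but which the rule left out were looked at after the values were seen. Rabl6, a Rab-like GTPase, had 52.3 to 111 CPM over the 8 libraries, Rabl3 8.58 to 35.0 and Rabl2 9.99 to 28.3. The edgeR adjusted p for any difference among the 4 fractions was 0.660, 0.523 and 0.759. Rabepk, which is no GTPase and binds Rab9, had 9.81 to 28.0 CPM (edgeR adjusted p = 0.951). The antisense transcripts Rab10os and Rab26os had 1.92 to 9.62 and 0.787 to 3.01 CPM, and without strand their reads cannot be told from those of overlapping genes.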
